A study of Mus musculus with 10 samples.

Results

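The genes described here encode nuclear-coded subunits of respiratory complexes II to V, measured in livers of mice treated with an antisense oligonucleotide against the liver microRNA miR-122. Members were chosen by gene symbol, as the Sdha to Sdhd genes, the Uqcr genes, Cyc1, the Cox4 to Cox8 genes and the Atp5 genes, and the rule used no measured value, although this group of genes was taken up with earlier results of these data known. The symbols were found on 50 probes with 1 annotated gene, which stood for 45 genes of 18012 measured. These were 4 genes of complex II, 9 of complex III, 16 of complex IV and 16 of complex V. For the 5 genes with more than 1 probe, the probe with the highest mean over all arrays was used.

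Liver RNA of 10 mice was hybridised to 1-colour CodeLink oligonucleotide arrays, with 1 array for each mouse. The 5 treated mice were male C57Bl/6 animals that received intraperitoneal injections of an antisense oligonucleotide (ASO) to miR-122, with 2′-O-methoxyethyl and phosphorothioate modification. Each dose was 50 mg/kg, and mice had 2 doses in each of 4 weeks. The 5 control mice were given saline on the same schedule, and their strain, sex and age are not stated in the labels. Age is not stated for the treated mice either, and livers of both groups were collected 2 days after the final injection. Since no group used here received an oligonucleotide of another sequence, blocking of miR-122 and other effects of the oligonucleotide cannot be told apart in this comparison.

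The respiratory chain of the inner mitochondrial membrane moves electrons from nutrients to oxygen and stores the energy as a proton gradient. Complex II (succinate dehydrogenase) feeds electrons from the citrate cycle to ubiquinone, complex III passes them to cytochrome c, complex IV (cytochrome c oxidase) hands them to oxygen, and complex V (ATP synthase) uses the gradient to make ATP. Most subunits are encoded in the nucleus and imported, whereas the catalytic core of complexes III and IV also needs subunits encoded by mitochondrial DNA. Hepatocytes are rich in mitochondria and draw on this chain for glucose production, urea synthesis and fat oxidation.

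Levels are log2 array intensities, and every difference is the ASO mean minus the saline mean on that scale. The median intensity of the arrays lay between 1.03 and 1.05 on the linear scale, and levels of different probes are not comparable with each other. No value on saline replicate 1 exceeded 9.08, while the top values of the remaining arrays were 10.23 to 11.19. There, 3 members lay within 0.3 of the top value, namely Atp5g3, Uqcrb and Cox6a1. Without saline replicate 1 their differences were -0.55, -0.34 and -0.94. No member had a missing value, 41 of the 45 had a mean above the median of all probes (0.03), and 2 (Cox7b2 and Cox4i2) had values at the floor of -2.38 that was set for dim signals. All 8 hepatocyte markers measured were above the median level.

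Transcripts of complexes II to V were mostly lower in the ASO livers, without any single gene passing the threshold over the whole array. Of the 45 genes 37 (82.2%) were lower and 8 higher, with a median difference of -0.26, where 54.9% of all genes were lower. None had a limma adjusted p under 0.05 (smallest 0.106, for Cox7a1), where 0.0637% of all 36088 probes did. At an unadjusted p under 0.05, 13 of 45 members (28.9%) were lower and 0 higher, against 8.26% lower and 4.21% higher among all 18012 genes. Bright probes leaned to the lower side in these arrays, so the members were also set beside 936 other genes whose mean level lay between the lower and upper quartiles of the members' levels (5.70 to 8.04). Of those, 63.9% were lower, with a median difference of -0.10. At the same threshold 10.9% of them were lower and 3.53% higher. The members' shares also count members dimmer or brighter than that range, so the sets are matched in level only in part. In liver tissue, fewer cells of a type and less RNA per cell cannot be told apart.

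A level lower by at least 1.5-fold, the size named in the design of the study, was measured for 15 of 45 members (33.3%), for 9.33% of all genes and for 12.7% of the equally bright genes, and no member was higher by as much. In 4 members, Uqcrfs1, Cox6a1, Cox7a1 and Atp5b, every ASO array read below every saline array (8.89%), as did 1.72% of all genes and 2.24% of the equally bright ones. Of these 4 only Uqcrfs1 (mean level 6.89) lay in the range of the equally bright genes. Cox7a1 (0.21) and Atp5b (4.69) were dimmer than that range and Cox6a1 (8.33) was brighter. No member had every ASO array above every saline array, which was the case for 0.96% of all genes. Of the 13 members lower at the unadjusted threshold, 10 stayed under it in the fit as deposited and in each of the 18 alternatives. Cox7c, Atp5g3 and Atp5g1 did not. The share of equally bright genes lower at this threshold ranged from 7.37% under quantile normalization to 15.9% without ASO replicate 5, and the members' share from 24.4% to 35.6%.

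**Figure D1:**
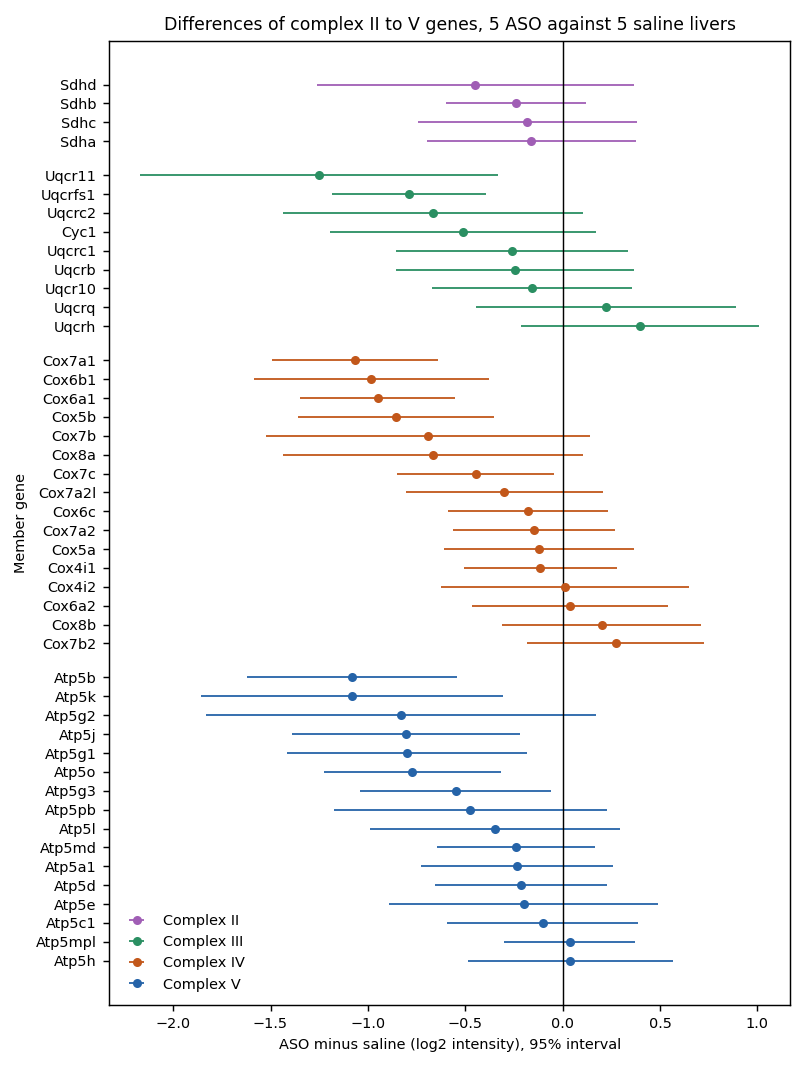
Difference between 5 ASO and 5 saline livers for each of the 45 genes, in log2 intensity (x axis), grouped and coloured by complex; points are limma estimates and bars 95% intervals. 37 points lie left of 0, and the bars of 13 genes, 0 of them in complex II, stay wholly below 0.

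**Figure D2:**
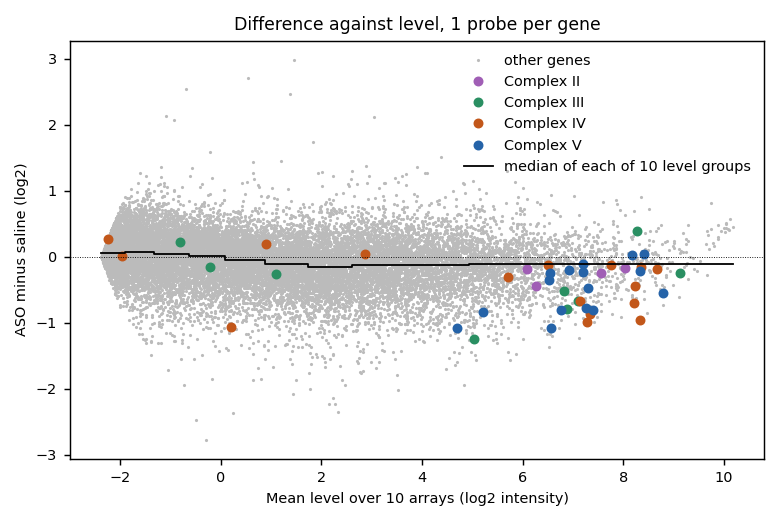
Difference (y axis, log2) against mean level over the 10 arrays (x axis, log2 intensity), with 1 probe per gene; grey points are other genes, coloured points the members by complex, and the black line the median of each of 10 equal groups of genes ordered by level. The brightest group holds 36 members with a median of -0.40, and the line there is at -0.11.

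Some promoters of these genes are shown as examples of motif matches, and those shown were picked through the differences of their genes. Nuclear respiratory factor 1 (NRF1) and the ETS factors, which include GABP, are transcription factors known for binding promoters of respiratory genes. RefSeq promoter sequence (GRCm38.p6) was matched by symbol for 34 of the 45 genes, and a window from 250 bases before to 30 bases after the start was searched on both strands. The first 3 promoters below belong to those of the 13 members lower at unadjusted p under 0.05 in which both motifs were found (Atp5l, with a difference of -0.35, also held both), and Cox7a1, in which neither was found, is shown beside them. Capitals mark the NRF1 letters GCGCATGCG (or CGCATGCGC, its other strand) and the ETS letters CCGGAAG (or CTTCCGG).
Cox6a1, chr5:115348929-115349208 (minus strand): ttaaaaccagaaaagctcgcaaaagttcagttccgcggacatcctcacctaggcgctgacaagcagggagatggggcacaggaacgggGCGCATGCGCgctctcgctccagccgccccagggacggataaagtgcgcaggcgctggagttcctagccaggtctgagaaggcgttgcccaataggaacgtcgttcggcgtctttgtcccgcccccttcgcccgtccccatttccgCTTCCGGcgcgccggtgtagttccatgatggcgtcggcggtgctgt
Uqcr11, chr10:80406792-80407071 (minus strand): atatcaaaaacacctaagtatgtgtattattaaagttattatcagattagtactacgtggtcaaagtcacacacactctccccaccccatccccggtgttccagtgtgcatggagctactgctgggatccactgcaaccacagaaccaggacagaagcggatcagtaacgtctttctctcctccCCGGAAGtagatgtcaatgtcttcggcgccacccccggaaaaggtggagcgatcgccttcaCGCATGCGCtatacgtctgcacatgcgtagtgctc
Atp5k, chr5:108434370-108434649 (minus strand): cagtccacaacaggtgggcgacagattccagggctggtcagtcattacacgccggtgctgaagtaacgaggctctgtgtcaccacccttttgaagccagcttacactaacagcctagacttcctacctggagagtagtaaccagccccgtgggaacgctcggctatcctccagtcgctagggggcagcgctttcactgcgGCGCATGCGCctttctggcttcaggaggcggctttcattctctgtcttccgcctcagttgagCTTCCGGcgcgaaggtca
Cox7a1, chr7:30183921-30184200 (plus strand): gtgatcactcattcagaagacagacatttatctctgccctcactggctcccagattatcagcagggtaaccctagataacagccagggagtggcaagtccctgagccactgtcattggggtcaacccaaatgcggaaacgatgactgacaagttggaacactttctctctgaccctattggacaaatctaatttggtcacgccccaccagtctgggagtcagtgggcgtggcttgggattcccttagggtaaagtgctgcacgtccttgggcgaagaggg

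The NRF1 letters began 162 bases before the start in Cox6a1, 50 before it in Atp5k and 5 before it in Uqcr11. They were found in 5 of 34 members (14.7%), against 1.67% of all 32851 promoter windows of the same length. The ETS letters were found in 13 of 34 members (38.2%), against 8.45% of all windows. The YY1 letters AAGATGGCG (or CGCCATCTT) were found in 1 of 34 (Atp5j), and in 1.05% of all windows. A member counted once with a match in any of its windows (37 windows for the 34 members), whereas the share of all windows counts each window singly. No match of 1 motif overlapped a match of another in the members' windows. The median GC content was 56.4% in the members' windows and 52.5% in all windows, and its part in these shares was not tested. Among members, ETS letters stood in 5 of 13 members lower at unadjusted p and in 8 of the 21 others with a promoter, and NRF1 letters in 3 of 13 and 2 of 21. A match is a run of letters and not a binding site.

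In complex II all 4 subunits were lower, with differences of -0.16 to -0.45 and a median of -0.21, and in none was the unadjusted p under 0.05. Sdhb, the iron-sulfur subunit, read 7.39, 7.68, 7.57, 7.94 and 7.80 in saline replicates 1 to 5 and 7.32, 7.63, 7.53, 7.20 and 7.50 in ASO replicates 1 to 5. The groups overlapped, and the difference was -0.24 ± 0.16 (SE, limma adjusted p = 0.606). Sdhd, a membrane anchor, read 6.72, 6.69, 5.58, 6.54 and 6.88 in saline and 6.34, 4.66, 6.29, 6.22 and 6.65 in ASO livers. The groups overlapped, ASO replicate 2 was far below the rest, and the difference of -0.45 ± 0.37 was -0.10 without that array. Sdhc, the other anchor, read 6.37, 6.31, 6.35, 6.22 and 5.66 in saline and 5.39, 5.75, 5.85, 6.26 and 6.74 in ASO livers, and ASO replicate 5 was the highest array of all 10. Its difference was -0.18 ± 0.26, and -0.01 under quantile normalization. Sdha, the flavoprotein that oxidises succinate, had -0.16 ± 0.25 (95% interval -0.70 to 0.38).

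In complex III, of 9 genes 7 were lower, 2 of them at unadjusted p under 0.05, and the median was -0.26. Uqcrfs1, the Rieske iron-sulfur protein that takes electrons from ubiquinol, read 7.28, 7.15, 7.30, 7.19 and 7.50 in the 5 saline livers. In the ASO livers it read 6.76, 6.79, 6.59, 6.22 and 6.12. The highest ASO array (6.79) was below the lowest saline array (7.15). The means were 7.28 ± 0.14 and 6.49 ± 0.31 (SD, n = 5 each), and the difference was -0.79 ± 0.18 (SE, limma adjusted p = 0.168).

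Uqcr11, a small subunit at the edge of the complex, had the largest difference of all members. Its saline arrays read 6.12, 5.52, 5.97, 4.87 and 5.84 and its ASO arrays 5.27, 3.92, 3.84, 3.43 and 5.59. ASO replicates 2, 3 and 4 (3.43 to 3.92) lay below the lowest saline array (4.87), whereas replicates 1 and 5 lay within the saline range. The difference of -1.25 ± 0.42 (adjusted p = 0.303) goes with a wide spread among the ASO arrays (SD 0.96). Cyc1, cytochrome c1, was low in a single ASO liver (replicate 4, 5.25) and its difference went from -0.51 to -0.18 without that array.

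In 3 genes of complex III the probes disagreed. Uqcrc2, a core protein of complex III, read 8.08, 7.77, 6.98, 7.54 and 6.80 in saline and 7.02, 6.58, 5.84, 6.62 and 7.76 in ASO livers at its brighter probe, a difference of -0.67 ± 0.35. Its other probe gave 0.34 ± 0.25. Uqcrh, the hinge protein that helps cytochrome c1 to meet cytochrome c, had the largest increase of all members at the probe used, 0.40 ± 0.28, with 8.12, 8.07, 8.85, 7.97 and 7.32 in saline and 8.56, 9.11, 8.28, 8.25 and 8.12 in ASO livers. The second Uqcrh probe, nearly as bright, read 8.73, 7.90, 8.60, 8.15 and 7.50 in saline and 7.76, 7.60, 6.61, 7.66 and 8.11 in ASO livers. Its difference was -0.63 ± 0.31, opposite in sign to that of the first probe, and the mean of both was -0.12. Uqcr10 gave -0.16 ± 0.23 and 0.23 ± 0.29 at its probes, both dim. Uqcrb, Uqcrc1 and Uqcrq had -0.24 ± 0.28, -0.26 ± 0.27 and 0.22 ± 0.31, and Uqcrq was dim too (mean level -0.81).

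In complex IV, of 16 genes 12 were lower, 5 of them at unadjusted p under 0.05, with a median of -0.24. Cox6a1, the liver-type form of subunit VIa, read 8.83, 9.06, 8.62, 8.89 and 8.65 in saline and 8.09, 7.92, 7.40, 7.76 and 8.12 in ASO livers. The lowest saline array (8.62) was above the highest ASO array (8.12), and the difference was -0.95 ± 0.18 (SE, limma adjusted p = 0.115), a level 1.93-fold lower. Cox5b, a matrix-side subunit that binds zinc, read 8.27, 7.77, 7.21, 7.72 and 7.84 in saline and 6.96, 6.93, 6.37, 7.34 and 6.91 in ASO livers. ASO replicate 4 overlapped with saline replicate 3, and the difference was -0.86 ± 0.23 (adjusted p = 0.232). Cox6b1, on the side where cytochrome c docks, read 7.93, 7.41, 8.32, 7.21 and 7.98 in saline and 7.29, 6.44, 7.05, 6.13 and 7.03 in ASO livers, where ASO replicate 1 reached into the saline range, a difference of -0.98 ± 0.28 (adjusted p = 0.246).

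Other subunits had smaller differences. Cox7c, a small membrane subunit, had -0.45 ± 0.19 (adjusted p = 0.402), Cox7b -0.69 ± 0.38 and Cox6c -0.18 ± 0.19. Cox7b read 6.24 on ASO replicate 1 and 8.01 to 8.43 on the other ASO arrays, and without replicate 1 its difference was -0.28. Cox5a, which sits beside Cox4 on the matrix side, had -0.12 ± 0.22. Cox7a2l, counted in complex IV by its symbol, had -0.30 ± 0.23, and -0.13 under quantile normalization.

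Subunits IV, VIa, VIIa and VIII of cytochrome c oxidase exist as a general or liver form and as a form enriched in heart, muscle or lung. Cox7a1, the heart and muscle form of VIIa, had the smallest p of all 45 members. Its saline arrays read 1.15, 0.82, 0.42, 0.85 and 0.48 and its ASO arrays -0.39, -0.30, -0.71, -0.05 and -0.16. The groups did not overlap, and the difference was -1.06 ± 0.19 (SE, limma adjusted p = 0.106). With a pseudocount of 1 in place of the floor the difference was -0.57. When the fit held only the brighter probes, those with a mean above the median, its adjusted p was 0.0458. The mean level of Cox7a1 (0.21) was close to that median (0.03), and no other cut was tried. Cox7a2, the liver form, read 8.24, 8.44, 8.55, 8.34 and 8.59 in saline and 8.31, 8.58, 8.52, 7.70 and 8.32 in ASO livers, a difference of -0.15 ± 0.19, which was -0.00 without ASO replicate 4.

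For subunit VIa the larger difference was that of the liver form, Cox6a1, given above. Cox6a2, the muscle form, read 2.72, 3.05, 2.64, 2.84 and 2.94 in saline and 3.24, 2.92, 3.20, 2.98 and 2.04 in ASO livers, with a difference of 0.04 ± 0.23. Cox8a, the general form of VIII, read 7.47, 7.59, 7.30, 7.88 and 7.14 in saline and 7.40, 6.67, 5.55, 6.71 and 7.72 in ASO livers. ASO replicates 2, 3 and 4 of Cox8a lay below every saline array and replicates 1 and 5 did not. Its difference was -0.66 ± 0.35, and -0.35 without ASO replicate 3. Cox8b, the heart and muscle form, read 1.01, 0.65, 0.34, 0.58 and 1.43 in saline and 0.77, 1.02, 0.63, 1.24 and 1.35 in ASO livers, a difference of 0.20 ± 0.23. Cox4i1, the general form of IV, read 8.03, 7.42, 7.74, 8.13 and 7.77 in saline and 7.79, 7.58, 7.54, 7.61 and 7.99 in ASO livers and had -0.11 ± 0.18. In Cox6a2, Cox8b and Cox4i1 the ranges of the groups overlapped. Cox4i2, the lung form, was at or near the floor with -1.28, -2.35, -2.38, -1.47 and -2.38 in saline and -2.38, -2.38, -2.02, -1.55 and -1.47 in ASO livers, and its difference carries no direction. Cox7b2, a form known from testis, was at the floor of -2.38 on all 5 saline arrays and read -2.02, -1.38, -2.38, -2.38 and -2.38 in ASO livers. Like Cox4i2 it counts among the 8 higher members, but the size of its difference is set by the floor and is not given.

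Within-array ratios set the forms of a subunit against each other on the same array, so that a factor common to the whole array drops out. The log2 ratio of Cox6a1 over Cox6a2 was 6.12, 6.01, 5.98, 6.05 and 5.71 in saline and 4.85, 5.00, 4.21, 4.78 and 6.08 in ASO livers. Here 4 of 5 ASO arrays lay below every saline array, and ASO replicate 5 lay among the saline arrays. On ASO replicate 5, Cox6a1 itself read 8.12, below every saline array, and Cox6a2 read 2.04, its lowest value on any array. The ratio differed by -0.99 ± 0.31 (SE, exact two-sided permutation p = 0.0397, 0.0794 adjusted over the 4 pairs run). For Cox7a1 over Cox7a2, too, 4 ASO arrays lay below every saline array, and here ASO replicate 4 did not. That ratio differed by -0.92 ± 0.32 (exact permutation p = 0.0317, adjusted 0.0794) and Cox8a over Cox8b by -0.87 ± 0.41 (exact permutation p = 0.0635, adjusted 0.0847). The ratio of Cox4i1 over Cox4i2, the fourth pair, is set by the floor of Cox4i2 and is not read here. None of the other 3 passed the adjustment, and with 5 mice against 5 the smallest p this test can give is 0.00794.

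**Figure D3:**
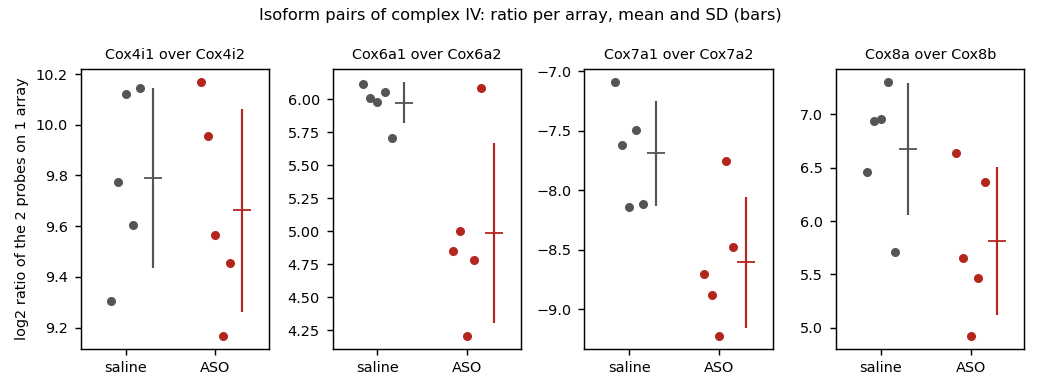
Log2 ratio of the probes of each isoform pair on the same array (y axis), for 5 saline and 5 ASO livers; points run from replicate 1 to 5, and bars give the mean and SD. The first panel rests on Cox4i2 values at or near the floor. For Cox6a1 over Cox6a2, 4 ASO points lie under all saline points and the point of ASO replicate 5 (6.08) lies among the saline points. On that array Cox6a2 read 2.04, its lowest value.

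In complex V, 14 of 16 genes were lower, 6 of them at unadjusted p under 0.05, with a median of -0.41. Without single arrays the complex medians ranged from -0.34 to -0.12 for II, -0.48 to -0.20 for III, -0.31 to -0.16 for IV and -0.52 to -0.28 for V, and whether the complexes differ from each other was not tested. In the catalytic F1 head, Atp5b, the beta subunit that carries the catalytic sites, read 5.66, 4.94, 5.68, 5.37 and 4.48 in saline and 4.40, 4.16, 4.11, 3.77 and 4.28 in ASO livers. The groups did not overlap, though the lowest saline array (4.48) came near the highest ASO array (4.40), and the difference was -1.08 ± 0.25 (SE, limma adjusted p = 0.168). The other head subunits differed less. Atp5a1 (alpha) had -0.24 ± 0.22, Atp5c1 (gamma) -0.10 ± 0.22, Atp5d (delta) -0.21 ± 0.20 and Atp5e (epsilon) -0.20 ± 0.32, with 95% intervals that reached from -0.89 to 0.49 for the least precise of them, Atp5e.

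The peripheral stalk, which holds the head still against the turning rotor, had members on both sides of 0. Atp5o, known as OSCP, read 7.88, 7.91, 7.38, 7.75 and 7.26 in saline and 6.87, 6.45, 6.70, 7.01 and 7.30 in ASO livers. Only the highest ASO array, replicate 5, reached into the saline range, and the difference was -0.77 ± 0.21 (SE, adjusted p = 0.234). Atp5j, coupling factor 6, had -0.81 ± 0.27 (adjusted p = 0.297), with 4 ASO arrays between 6.47 and 7.00 and ASO replicate 5 at 7.99, among the saline arrays (7.43 to 8.03). Atp5pb (subunit b) had -0.47 ± 0.32, and -0.21 without ASO replicate 2. Atp5h (subunit d) had the largest increase in the complex, 0.04 ± 0.24, with 8.57, 8.65, 8.23, 7.65 and 8.90 in saline and 8.37, 8.33, 8.34, 8.26 and 8.89 in ASO livers, and its sign turned in 4 of the 18 alternatives.

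The rotor ring is built from subunit c, whose mature protein is the same from 3 genes, Atp5g1, Atp5g2 and Atp5g3. All 3 were lower in the ASO livers. Atp5g1 read 7.40, 7.14, 6.80, 7.33 and 7.11 in saline and 6.76, 6.41, 5.45, 6.07 and 7.10 in ASO livers at the probe used. Its difference was -0.80 ± 0.28 (adjusted p = 0.331) there and -0.15 ± 0.26 at its dimmer probe, and the mean of both gave -0.48. Atp5g3 had -0.55 ± 0.22 (adjusted p = 0.395), with saline arrays between 8.95 and 9.23, 4 ASO arrays between 8.15 and 8.80 and ASO replicate 5 at 9.23. Atp5g2 had -0.83 ± 0.46, and -0.35 without ASO replicate 2, which read 2.86.

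Among the small membrane subunits, Atp5k (subunit e, which joins synthase molecules into dimers) read 7.43, 7.00, 7.00, 7.58 and 6.52 in saline and 6.92, 5.52, 6.33, 4.94 and 6.40 in ASO livers. ASO replicate 1 lay within the saline range and the other 4 lay below it, with a difference of -1.08 ± 0.35 (SE, adjusted p = 0.295). Atp5l (subunit g) had -0.35 ± 0.29, Atp5md -0.24 ± 0.19 and Atp5mpl 0.04 ± 0.15. Atp5mpl had the smallest SE of the 45 members (95% interval -0.30 to 0.37).

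**Figure D4:**
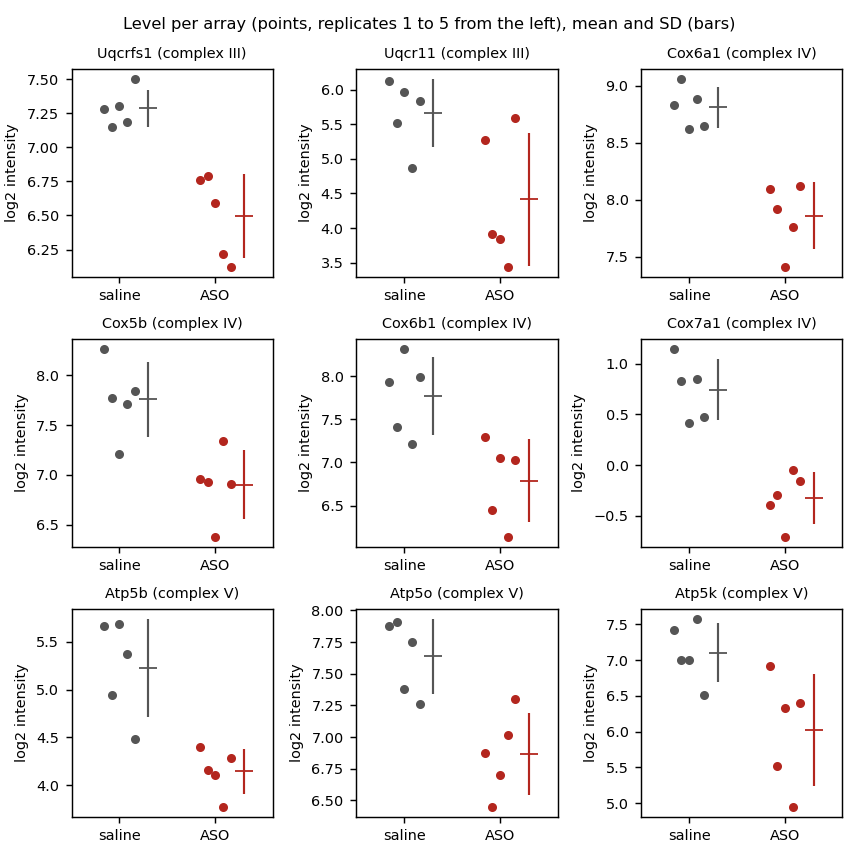
Level (y axis, log2 intensity) of 9 members lower at unadjusted p under 0.05, on each of 5 saline (grey) and 5 ASO (red) arrays; points run from replicate 1 to 5, and bars give the mean and SD. Groups are apart in Uqcrfs1, Cox6a1, Cox7a1 and Atp5b and overlap in the other panels.

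The ASO arrays differed among themselves. Measured from each gene's saline mean, the median deviation of the 45 members was -0.35, -0.43, -0.31, -0.48 and -0.06 in ASO replicates 1 to 5, against -0.07 to 0.18 in the saline arrays. The median of ASO replicate 5 lay within the saline range, with 23 of 45 members under their saline mean, where the other ASO arrays had 31 to 37. The number of members below every saline array was 19, 21, 17, 22 and 11 in ASO replicates 1 to 5. The same count was not made over all genes, so it is not read as a trait of the members. The equally bright genes had medians of -0.15, -0.04, -0.08, -0.14 and 0.01 on the same arrays. Without ASO replicate 5, 16 members instead of 13 were lower at unadjusted p under 0.05 and the median difference was -0.37.

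Within the 13 members lower at that threshold, all 5 ASO arrays had medians below the saline arrays, -0.67, -0.89, -1.06, -1.07 and -0.69, but these genes were picked by the same values. In 8 of the 13 exactly 4 ASO arrays lay below every saline array. ASO replicate 5 was inside or above the saline range in 6 of the 13. ASO replicate 4 was lowest for complex III (-0.81) and IV (-0.49), ASO replicate 2 was lowest for complex V (-0.76) but at 0.00 for complex III, and ASO replicate 5 was above the saline mean for complex II (0.31).

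**Figure D5:**
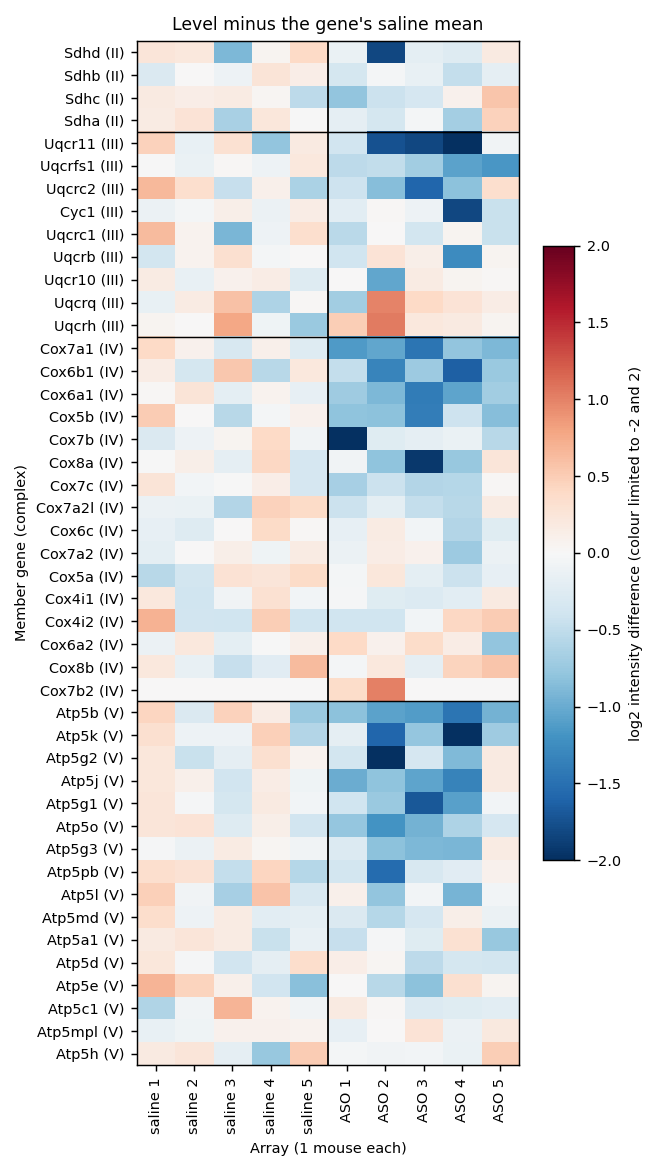
Deviation of each member (rows, with its complex) from its own saline mean, in log2 intensity, on the 10 arrays (columns); blue is lower and red higher, with colours limited to -2 and 2. Blue cells gather in ASO replicates 1 to 4, and ASO replicate 5 is pale for most members.

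Complex I, the entry point for electrons from NADH, was set beside the members by symbol. Of 30 genes 27 were lower, 6 of them at unadjusted p under 0.05, with 0 higher at that threshold and a median of -0.36. The symbols took in Ndufa4l2 (-0.64 ± 0.24), 1 of these 6, which is not an established subunit of complex I. Ndufv2, an iron-sulfur subunit near the NADH site, had -1.17 ± 0.32 (SE, limma adjusted p = 0.238), Ndufs3 -0.68 ± 0.21 and Ndufa1 -0.56 ± 0.20. The array medians of complex I were -0.42, -0.24, -0.35, -0.53 and -0.05 in ASO replicates 1 to 5. Its comparison uses the same 10 arrays as the members. The counts of this list and of those that follow stand beside 54.9% of all genes lower, and 8.26% lower at unadjusted p under 0.05, and beside 62.6% and 11.3% among genes above the median level.

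Of 14 genes of electron carriers, of ubiquinone synthesis and of enzymes that feed ubiquinone, 10 were lower, 4 at unadjusted p under 0.05 and 0 higher at it, with a median of -0.31. Coq5, a methyltransferase of ubiquinone synthesis, read 5.29, 4.68, 4.77, 5.05 and 4.79 in saline and 4.15, 3.41, 3.55, 3.34 and 4.52 in ASO livers, without overlap, a difference of -1.12 ± 0.25 (SE, adjusted p = 0.158). The electron transfer flavoprotein, which carries electrons from fatty acid oxidation, had its alpha subunit Etfa at -0.91 ± 0.28 and its dehydrogenase Etfdh at -1.94 ± 0.50. Cytochrome c itself, encoded by Cycs and chosen after its values were seen, had -0.21 ± 0.23.

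For complex IV, 9 of 16 assembly and copper-delivery genes were lower and 7 higher, none at unadjusted p under 0.05, with Taco1 at -0.59 ± 0.33, Coa6 at -0.37 ± 0.21 and Cox11 at -0.42 ± 0.29. For complex III all 5 were lower, with Uqcc1, the single one at that threshold, at -0.88 ± 0.39, Bcs1l at -0.92 ± 0.49 and Ttc19 at -0.29 ± 0.24. For complex II, Sdhaf4 had 0.45 ± 0.29 and Sdhaf2 -0.30 ± 0.27. Of the 5 genes listed for complex V, 4 were lower, among them Foxred1 (-0.14 ± 0.18), which is known from complex I assembly. Atpif1, the inhibitor that stops ATP synthase from running backwards, was higher, with 5.15, 4.98, 4.94, 5.26 and 4.83 in saline and 5.75, 6.25, 5.53, 5.11 and 6.36 in ASO livers and a difference of 0.77 ± 0.24 (SE, adjusted p = 0.279). It was the single gene of these 4 lists that was higher at unadjusted p under 0.05. Carriers that exchange ATP, ADP and phosphate were lower in 8 of 9, none at that threshold, with a median of -0.17. Slc25a5 had -0.42 ± 0.20, Slc25a3 -0.35 ± 0.19 and Slc25a4 -0.55 ± 0.40.

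Of 20 regulators of respiratory genes 13 (65%) were lower, 2 (10%) at unadjusted p under 0.05, with a median of -0.10, shares near those of all genes. Gabpa, the DNA-binding subunit of the ETS factor GABP, read 1.73, 1.01, 0.83, 0.64 and 1.18 in saline and 0.63, 0.12, -0.74, -0.48 and -0.03 in ASO livers. Its groups did not overlap and the difference was -1.17 ± 0.28 (SE, limma adjusted p = 0.19). Sirt3, the main deacetylase of mitochondria, had -0.90 ± 0.31, and Myc -0.48 ± 0.25. Chosen after their values were seen, Gabpb1, the other subunit of GABP, had 0.32 ± 0.23 and the co-activator Ppargc1a -0.05 ± 0.20. Also chosen in this way, Nrf1 had -0.07 ± 0.20 and Tfam, the packaging protein of mitochondrial DNA, -0.27 ± 0.16. Genes that copy and express mitochondrial DNA were lower in 9 of 11, 3 of them at unadjusted p under 0.05, with the polymerase Polg at -0.78 ± 0.18, without overlap of the groups, Mtif2 at -1.17 ± 0.42 and Mtif3 at -0.55 ± 0.23. Import and chaperone genes were lower in 15 of 19, with 4 lower and 1 higher at that threshold and a median of -0.37. Phb had -0.71 ± 0.23, Tomm22, a receptor of the import pore, -1.11 ± 0.36, and Immt, which shapes the cristae, was the higher one at 0.65 ± 0.21.

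Cox7a1, Cox6a2 and Cox8b are known from muscle, and Cox7a1 and Cox8b also from brown fat, so markers of those tissues are given beside them. The summed linear intensity of 13 of 14 listed muscle markers was 8.50 to 11.1 on saline replicates 1 to 4, 26.6 on saline replicate 5 and 8.19 to 9.35 on the ASO arrays, and 11 of the 13 lay below the median level. Acta1, skeletal muscle actin and chosen after its values were seen, read -2.13, -2.38, -1.49, -1.13 and 2.48 in saline and -2.38, -1.67, -2.06, -2.38 and -2.38 in ASO livers. On saline replicate 5, where these markers peaked, Cox7a1 read 0.48, the second lowest of the saline arrays, and without that array its difference was -1.13. The 9 of 10 fat markers measured summed to 73.5 to 197 in saline and 74.3 to 140 in ASO livers, and Elovl3 and Fabp4 made up 93.1% or more of each sum. The other 7 summed to 9.26 on saline replicate 5, 2.49 to 3.55 on the other saline arrays and 2.49 to 4.05 on the ASO arrays. On saline replicate 5, where the muscle sum was highest, Adipoq read 2.41 and Retn 0.65, for each the highest of all arrays. The other fat markers were each highest on another array. The sum of all 9 fat markers was 135 on saline replicate 5, against 175 and 197 on saline replicates 1 and 2. The brown fat gene Ucp1 lay between -2.38 and -0.34 on all arrays. Adipoq, Retn and Ucp1 were chosen after their values were seen. Of the 13 muscle markers 8 were lower, with Tnni2 (-0.81 ± 0.28) at unadjusted p under 0.05. Of the 9 fat markers 6 were higher, with a median difference of 0.21, and Dio2 (-0.88 ± 0.38) was lower at unadjusted p under 0.05.

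Hepatocyte markers summed to 2910 to 7002 in saline and 6149 to 8475 in ASO livers, the lowest being saline replicate 1 with its low top value, and 0 of 8 were lower at unadjusted p under 0.05. Their median difference was 0.39 with all arrays and 0.15 without saline replicate 1, on which 5 of the 8, Alb, Apoa1, Cyp2e1, Ttr and Serpina1e, read 8.86 to 8.89, near its top value. Alb had 0.57 ± 0.27 (0.33 without that array), Apoa1 0.50 ± 0.26 (0.27) and Arg1 -0.32 ± 0.16 (-0.38). Sums over macrophage markers (8 of 10 measured) were 120 to 299 in saline and 49.7 to 273 in ASO livers, and over endothelial markers (8 of 8) 59.4 to 106 and 37.1 to 118, both lowest on ASO replicate 2. Stellate cell markers (8 of 8) summed to 122 to 182 and 105 to 177, bile duct markers (5 of 6) to 6.76 to 8.43 and 6.06 to 8.12, red blood cell markers (3 of 6) to 50.3 to 103 and 31.7 to 86.3, and lymphocyte markers (6 of 7) to 8.24 to 12.6 and 6.61 to 9.15. The red blood cell sum was carried by Alas2 (-0.51 ± 0.29), while the other 2 markers, Slc4a1 (0.27 ± 0.19) and Epb42 (0.11 ± 0.19), were higher. At unadjusted p under 0.05, 1 endothelial marker, Cdh5, was higher (0.87 ± 0.28, mean level -1.53). Lower at that threshold were 1 bile duct marker, Krt19 (-0.62 ± 0.24), and 1 lymphocyte marker, Ms4a1 (-0.57 ± 0.16, without overlap of the groups). Of the 6 lymphocyte markers 4 were lower, among them Cd79a (-0.51 ± 0.23), and 2 higher. No marker of these lists was at the floor on all 10 arrays. The part of cell composition in the members' differences was not tested.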

How the data were processed

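The authors deposited linear array intensities, 1 column per mouse, already on a common median; for scanner software, background subtraction and scaling the sources used here give nothing. The platform is CodeLink with biotin label, per the labels' protocols. Of 36227 probes, 139 with fewer than 3 values in a group were left out. Values below the 10th percentile of positive values (0.192) were set to it before log2, which understates differences of dim probes. Differences were fitted over all 36088 probes with limma 3.58.1 (lmFit, eBayes) in R 4.3.3 without covariates; tests were two-sided, and p-values were adjusted over all probes by Benjamini-Hochberg (threshold 0.05). Nothing in the labels marks the mice of a group as anything but separate animals, and precision is limited by the number of arrays. The procedure was tested on simulated data.

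Genes were named from platform annotation, and all 45 members matched a RefSeq symbol of GRCm38.p6. Members and lists were chosen with earlier results of these data known. Given in full were, per complex, the 3 smallest p and the largest difference each way, both genes of each isoform pair measured, disagreeing probes, and 3 genes per other list; Cox6b2 was not measured. Alternatives were quantile and cyclic loess normalization, no floor, a pseudocount of 1, only probes above the median, eBayes with trend and robust, array weights, the mean of a gene's probes and leaving out each array.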

Additional observations from a re-analysis of the deposited data

Results flagged for a closer look

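By Dixon's criterion at a critical value of 0.71, a single array stood apart in 9 of 90 groups of 5 arrays (10%). Each group was 1 member in 1 treatment, and chance gives such a flag in about 5% of groups. Cox7b2 in saline livers, at the floor on all 5 arrays, counts among the 90 but could not be flagged. In saline livers the flagged values were Sdhd on saline replicate 3 (5.58, next 6.54) and Sdhc on saline replicate 5 (5.66, next 6.22). In ASO livers ASO replicate 2 was lowest for Sdhd (4.66, next 6.22), Uqcr10 (-1.18, next -0.14) and Atp5pb (5.99, next 7.17). ASO replicate 4 was lowest for Cyc1 (5.25, next 6.64) and ASO replicate 1 for Cox7b (6.24, next 8.01). ASO replicate 5 was lowest for Cox6a2 (2.04, next 2.92) and highest for Atp5h (8.89, next 8.37).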

How the results depend on the processing

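The count of members lower at unadjusted p under 0.05 stayed between 11 and 16 when single arrays were left out and at 12 or 13 under the other alternatives. The median difference of all members stayed between -0.35 and -0.19 under the other alternatives and between -0.45 and -0.26 without single arrays (-0.45 without saline replicate 3). The 23 probes called over the whole table became 39 under cyclic loess, 7 with no floor, 73 with only probes above the median level, 42 with trend and robust eBayes, and 0 to 16 without single arrays (0 without saline replicate 2 or ASO replicate 3, 16 without ASO replicate 1). The members' median minus that of equally bright genes was -0.16 as deposited, -0.26 under quantile normalization, -0.19 under cyclic loess, -0.14 with the mean of a gene's probes and -0.35 to -0.16 without single arrays (-0.35 without saline replicate 3). The median of complex III was -0.51 with only probes above the median level and -0.48 without saline replicate 3. Dim signal limits what can be read for Cox7b2 and Cox4i2, which had values at the floor. With Uqcrq and Uqcr10 they make up the 4 members at or below the median level, of which 3 were higher and 1 lower. Of 806 values of single members under alternatives, 24 in 9 members changed sign, and no value with the changed sign had an unadjusted p under 0.05. The signs that changed under quantile normalization were those of Atp5c1 (0.0016), Cox4i2 (-0.059) and Cox5a (0.0034), under cyclic loess Cox4i2 (-0.071), with array weights Atp5h (-0.036), and with the mean of probes Uqcr10 (0.035) and Uqcrh (-0.12). Without single arrays the ranges were -0.25 to 0.066 for Atp5c1, -0.15 to 0.16 for Atp5h, -0.023 to 0.086 for Atp5mpl, -0.11 to 0.19 for Cox4i2, -0.053 to 0.25 for Cox6a2, -0.24 to 0.061 for Uqcr10 and -0.37 to 0.010 for Uqcrb. No member was higher at unadjusted p under 0.05 except Uqcrh without saline replicate 3 (0.59), and no member passed the adjusted threshold in any alternative except Cox7a1 with only probes above the median level. The cause of the changes was not tested.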
